A study of Mus musculus with 101 samples.

Results

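The 32 embryos described here are the XX mouse embryos whose sorted germ cells had the highest and the lowest transcript levels of a small set of meiotic genes. They were chosen by measured values: for each of the 48 XX embryos, log2(normalized count + 0.5) was averaged over Stra8, Sycp3, Syce1 and Smc1b, and this mean is called the score. The 16 embryos with the highest score are called upper, the 16 with the lowest are called lower, and the 16 between them are called middle. All 48 belong to a series of 101 embryos, of which the other 53 are XY. Dose and generation played no part in the choice.

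The series asked how benzo[a]pyrene (BaP), given to a pregnant F0 mouse, affects the germ cell transcriptome of her descendants. Each library held the germ cells of the gonads of a single embryo of the OG2 strain, in which the germline Pou5f1 promoter drives EGFP, taken at E13.5, when germ cells of the XX gonad begin meiosis, and enriched by FACS for EGFP. The F0 dams received the oil vehicle or BaP, at daily doses of 2, 0.2 and 0.033 mg/kg, and the embryos were of the F1, F2 or F3 generation. By the paper's methods, dosing covered fewer days of gestation for F1 embryos than for the F2 and F3 lineages. cDNA was primed with oligo(dT), so that polyadenylated RNA was measured. Every embryo of the upper, middle and lower groups shared this strain, reporter, age and sort, and 17 of the 48 descended from vehicle dams. The reporter uses the promoter of a pluripotency gene whose own transcript differed between the groups, as given below. The embryo's dam is in its label, and no dam contributed more than 1 XX library.

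Germ cells of the fetal ovary enter meiosis when retinoic acid and BMP signals induce STRA8, which acts with MEIOSIN to switch on genes for the chromosome axis, the synaptonemal complex and recombination. In the same period they shut down the pluripotency genes that they carried as primordial germ cells. Entry is not synchronous within an ovary, and the XY gonad blocks it by degrading retinoic acid and through NANOS2.

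The values are read counts that the authors normalized by TMM, and their sums per library ran from 781012 to 1211864 over the upper and lower embryos. With the step between values taken as 1 read counted over a gene, they could be turned back into whole reads for 99 of the 101 embryos, all 1423762 nonzero values lying within 0.05 of a whole number. Among these 99 the recovered reads ran from 5004382 to 87240533 with a median of 7789673. No depth is given for the upper embryo D1388.3, whose reads could not be recovered. A gene entered the XX comparison when its mean was at least 0.5 over the 48 XX embryos, which left 13038 genes besides the 4 that made the score. A gene can pass this filter while its mean in the upper or the lower group lies below 0.5. Differences between upper and lower are means of log2(normalized count + 0.5) in upper minus the same in lower, and they are descriptions without a test, because the embryos were grouped on the same libraries. A gene is counted as different at 2-fold or more, a log2 difference of at least 1. Each library is a bulk of many cells, so fewer meiotic cells and less meiotic RNA per cell cannot be told apart.

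The score ran from 6.59 to 8.61 in the lower embryos with a median of 7.79, from 8.61 to 9.18 in the middle and from 9.18 to 10.29 in the upper, with a median of 9.47. The ranking was continuous at both thresholds. D3620.3 was the last embryo inside the upper group at 9.1806, and D2510.2 stood just outside at 9.1791. At the other threshold C4992.1 was inside the lower group at 8.6090 and D2580.1 outside at 8.6130. In the 53 XY embryos the score ran from 4.85 to 6.80, so the lower embryos D3501.3, D4021.1 and E0103.2, at 6.59, 6.76 and 6.78, lay within the XY range.

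**Figure D1:**
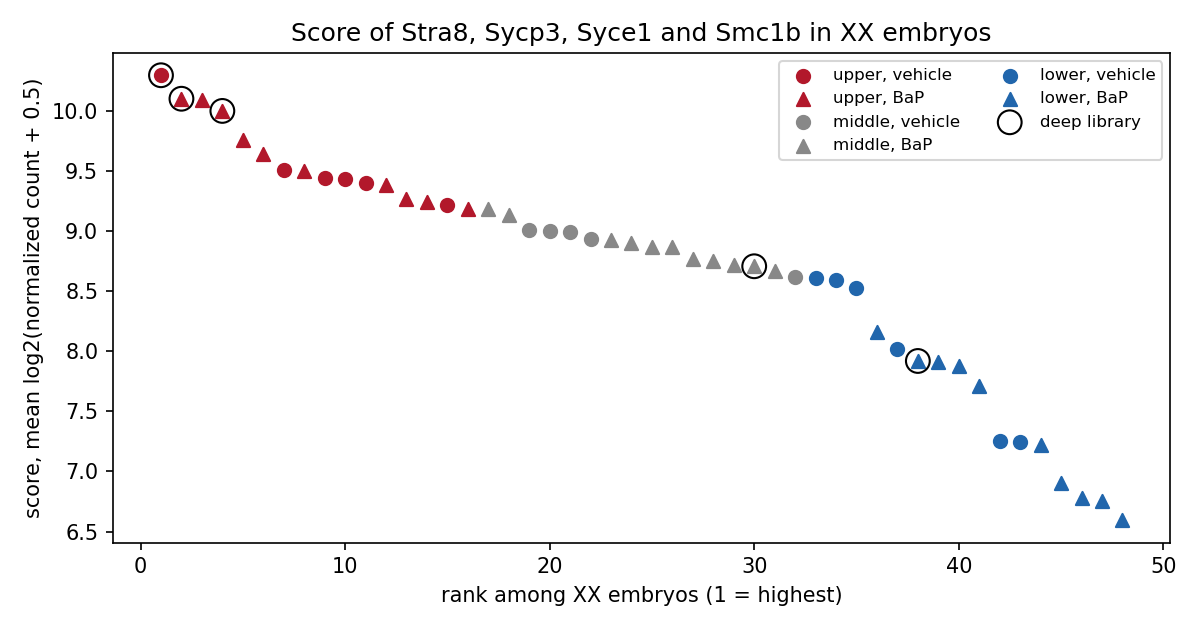
Score of each of the 48 XX embryos, the mean of log2(normalized count + 0.5) over Stra8, Sycp3, Syce1 and Smc1b, by rank from the highest. Colours mark the upper, middle and lower groups of 16, circles are vehicle and triangles BaP embryos, and a ring marks a library of over 20000000 reads. The values fall from 10.29 to 6.59 without a gap at either threshold and decline most steeply among the last embryos.

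Stra8, the retinoic acid target that opens the meiotic programme, had the widest range of the 4 on the log2 scale. Its normalized count ran from 9.12 through a median of 82.1 to 447 in the lower embryos and from 359.6 through 589 to 882 in the upper, and the groups met at their edges. In XY embryos the median was 1.40 and the highest value 14.7. D3501.3 and E0103.2, at 9.12 and 11.4, were the lower embryos below that highest XY value, and the other 14 lay above it. Sycp3 encodes a structural protein of the chromosome axis. It ran from 94.9 through 299 to 727 in lower and from 605 through 999 to 4088 in upper embryos. Syce1, a central element protein of the synaptonemal complex, ran from 185 through 243 to 365 and from 447 through 596 to 873. Smc1b, a cohesin subunit used in meiosis, ran from 133 through 287 to 492 and from 577 through 792 to 1366. Lower and upper values did not overlap for Syce1 and Smc1b, and overlapped in Sycp3 as in Stra8. Because these genes made the groups, their differences of 2.91, 2.09, 1.27 and 1.58 on the log2 scale only describe the choice. With any 1 of them left out of the score, between 14 and 16 of the 16 members of each group stayed the same.

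The working name of the comparison sets early against late meiosis. All embryos were collected at the same nominal age, and the labels give no cytological stage, so the order along the score is an order of transcript levels. The lower embryos carried less meiotic RNA and more pluripotency RNA than the upper, as given below, while 14 of the 16 had more Stra8 than any XY embryo. The neutral names are used here.

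Vehicle descendants made up 6 of the 16 upper and 6 of the 16 lower embryos, and BaP descendants 10 of each (Fisher's exact test, two-sided, p = 1). F1, F2 and F3 contributed 5, 6 and 5 upper embryos and 4, 4 and 8 lower embryos (exact test, p = 0.668). The doses of 0.033, 0.2 and 2 mg/kg/day contributed 3, 4 and 3 upper and 4, 2 and 4 lower embryos (exact test over 4 dose levels with vehicle, p = 0.86). After adjustment over the 3 tests every p was 1. With 16 embryos a side, differences in composition of a few embryos are not detectable. The 5 lowest scores all belonged to F3 embryos of BaP lineages, a feature seen after ranking and not tested.

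Recovered reads ran from 6518551 to 64111718 in 15 upper embryos with a median of 8140126, and from 5004382 to 32218626 in 16 lower embryos with a median of 7690172. Their mean log2 depth differed by 0.50 (permutation test, two-sided, p = 0.103). Libraries of over 20000000 reads, all from F1, numbered 3 in the upper group, 1 in the middle and 1 in the lower, and the 3 upper ones, C4232.9, C4228.3 and C4242.1, were among the 4 highest scores. Without these deep libraries the depth difference was 0.10 (permutation test, 12 against 15 embryos, p = 0.177), and 487 and 326 genes differed 2-fold in place of the 582 and 380 given next. The part of depth in the results was not tested beyond this.

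Of the 13038 genes, 582 (4.46%) were at least 2-fold higher in upper and 380 (2.91%) at least 2-fold higher in lower embryos. Differences ran from -2.33 to 4.52 around a median of 0.01 over all genes. The higher-in-upper side reached further: 42 of its genes differed 4-fold or more and 8 differed 8-fold or more, against 2 and 0 on the other side. In 95 genes (0.729%) every upper embryo was above every lower one, and in 36 (0.276%) every lower embryo was above every upper one.

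The same genes were then read in the 6 upper and 6 lower embryos of vehicle dams. There 347 genes (2.66%) were at least 2-fold higher in upper and 178 (1.37%) in lower embryos. All 582 genes and all 380 kept their direction among these vehicle embryos, which are part of the groups that picked the genes, and 311 (53.4%) and 143 (37.6%) also reached 2-fold. The median difference was 1.03 in vehicle and 1.42 in BaP embryos for the genes higher in upper, and -0.94 and -1.31 for those higher in lower. Vehicle counts depended on single embryos. Without C4232.9 they were 1.96% and 0.790% of the genes, without D1388.3 2.09% of genes were higher in lower, and without C4992.1 2.25% were. Among the 10 upper and 10 lower BaP embryos alone, 787 genes (6.04%) were 2-fold higher in upper and 571 (4.38%) in lower. In the vehicle embryos 786 of the 787 and 564 of the 571 had the same direction, and 302 (38.4%) and 133 (23.3%) reached 2-fold. The vehicle embryos were grouped by the score of their own libraries, so genes that follow the score agree by construction, and this is a description only.

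Genes that carry the entry into meiosis differed unevenly. The list of entry, retinoic acid and BMP genes held 20 names, of which 17 passed the filter, and 2 of the 17 were 2-fold higher in upper and 0 in lower (median 0.23). The counts of this and the later lists stand beside 4.46% and 2.91% of all compared genes. Meioc, listed as Gm1564 in the table, encodes a partner of YTHDC2 that holds germ cells in the meiotic programme. Its counts ran from 2.54 through 13.7 to 63.9 in lower and from 76.9 through 137 to 247 in upper embryos, a difference of 3.20 (SE 0.39). No lower embryo reached the upper range, and the XY median was 2.52. Rec8, a meiosis-specific cohesin, was the other, from 1.13 through 9.05 to 32.1 in lower and from 8.65 through 24.6 to 41.8 in upper embryos (1.39, SE 0.29). Here the highest lower embryos lay inside the upper range, and in vehicle the difference was 0.76.

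The genes on the BMP side of entry did not reach 2-fold. Zglp1, a factor that BMP induces on the way to the oogenic fate, ran from 97.4 through 121 to 176 in lower and from 116 through 134 to 167 in upper embryos. The upper range lay inside the lower one, while the XY median was 28.4. The differences of the BMP targets Gata2, Msx2, Id1 and Id3 were 0.33, -0.08, 0.23 and 0.02, and Msx1 and Id2 were higher in upper by 0.75 and 0.42. Msx2 had a median of 49.2 in lower and 1.16 in XY embryos, and Id1 59.4 and 2.85. On the retinoic acid side, the carrier gene Crabp2 was higher in upper embryos (0.98). The genes for the enzymes that degrade retinoic acid, Cyp26a1 and Cyp26b1, had means at or below 1 in all groups, as did Dhrs3.

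Of the 13 names on the list for the chromosome axis and the synaptonemal complex, 12 passed the filter, with 6 at least 2-fold higher in upper and 0 in lower embryos (median 1.01, 0.98 in vehicle). Sycp2, which builds the axis together with SYCP3, ran from 2.08 through 6.13 to 13.5 in lower and from 19.7 through 38.1 to 87.5 in upper embryos (2.58, SE 0.25). Sycp1, the filament that bridges paired axes, ran from 25.0 through 73.4 to 196 and from 236 through 319.7 to 810.1 (2.25, SE 0.25). Tex12 of the central element ran from 25.7 through 45.9 to 97.0 and from 148 through 226 to 712 (2.36, SE 0.24). In none of these did the groups overlap, and the middle medians of 14.3, 175 and 121 fell between. Syce3, Hormad1 and Rad21l were the other genes past 2-fold, at 1.54, 1.16 and 1.91, Rad21l from a lower median of 0. Rad21l means in lower embryos, 0.0740 in vehicle and 0.0697 in BaP, lay below the filter. Rad21l is counted among the 6, but the size of its difference depends on the constant added to each count. Syce2, whose product is the partner of TEX12, was abundant in all groups and differed by only 0.40. Of the other cohesin genes on the list, the meiotic Stag3 differed by 0.40 and Smc3, shared with mitosis, by 0.13, while Smc1a and Rad21 were higher in lower embryos, at -0.38 and -0.58.

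The list for double-strand breaks and recombination held 28 names. Of the 23 that passed the filter, 12 were at least 2-fold higher in upper and 0 in lower embryos (median 1.22, 0.98 in vehicle). Break formation was represented by Spo11, the enzyme that makes the breaks, which ran from 5.87 through 8.15 to 15.8 in lower and from 17.5 through 26.4 to 47.6 in upper embryos (1.63, SE 0.15). Prdm9, the histone methyltransferase that places the breaks, ran from 1.62 through 4.25 to 9.62 and from 14.3 through 24.4 to 65.0 (2.55, SE 0.23). Neither gene overlapped between the groups. Mei1 (1.59) and Iho1 (Ccdc36 in the table, 1.22), which are also needed for breaks, passed 2-fold, while Mei4 (0.97) and Rec114 (2410076I21Rik, 0.46) did not. Mei1, counted among the 12, had means of 0.473 in vehicle and 0.453 in BaP lower embryos, below the filter. The size of its difference therefore depends on the 0.5 added to each count.

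Meiob showed the largest difference among the named genes. Its product binds single-stranded DNA at breaks together with SPATA22. It ran from 0.636 through 1.41 to 9.72 in lower and from 13.2 through 26.3 to 105 in upper embryos (3.50, SE 0.35), and the XY median was 0.383. No lower embryo reached the lowest upper one. In vehicle embryos Meiob ran from 0.858 through 5.81 to 9.72 in the 6 lower and from 20.2 through 24.2 to 64.7 in the 6 upper (2.75), again apart. Spata22 was near 0 in lower embryos, from 0 through 0.123 to 1.37, and ran from 0.634 through 2.48 to 7.80 in upper embryos (2.20). Spata22 means in lower embryos, 0.259 in vehicle and 0.183 in BaP, lay below the filter. It is counted among the recombination genes past 2-fold, but the size of its difference depends on the constant added to each count. The strand exchange gene Dmc1 ran from 20.4 through 31.2 to 67.1 in lower and from 59.9 through 79.9 to 131 in upper embryos (1.32, SE 0.14), with an overlap at the edges. The crossover genes Tex11 (1.56), Hfm1 (1.43) and Msh4 (1.24) passed 2-fold, as did Tex15 (1.36) and Mcmdc2 (6030422M02Rik, 1.29), each without overlap. Msh5 (0.86), Hsf2bp (0.85), Zcwpw1 (0.90) and Mnd1 (0.91) stayed under 2-fold. The late gene Mlh3, which resolves crossovers, differed by 0.26.

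All 6 genes of the list for telomere attachment and movement passed the filter, and 5 were 2-fold higher in upper and 0 in lower embryos (median 2.20, 1.68 in vehicle). Spdya, an activator of CDK2 at telomeres, ran from 2.37 through 4.47 to 18.4 in lower and from 27.8 through 54.0 to 133 in upper embryos (3.40, SE 0.27). Terb1 (Ccdc79 in the table), which ties telomeres to the nuclear envelope, ran from 0.636 through 2.28 to 7.54 and from 8.25 through 15.9 to 34.8 (2.67, SE 0.26). Both were without overlap. The genes of its partners Terb2 (4933406J08Rik) and Majin (1700123I01Rik) differed by 1.72 and 2.87. Kash5 (Ccdc155), the link to the cytoskeleton, differed by 1.06 at counts under 5 in every embryo of the compared groups. Sun1, the envelope protein with roles in other cells, was level at -0.02.

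Germ cell genes outside the meiotic machinery were also higher in upper embryos. Of 15 listed genes for germ cell RNA and chromatin, all above the filter, 7 were 2-fold higher in upper and 0 in lower embryos (median 0.91, 0.56 in vehicle). Taf7l, an X-linked subunit of the basal transcription machinery in germ cells, ran from 1.96 through 5.10 to 33.1 in lower and from 29.2 through 58.2 to 129 in upper embryos (3.13, SE 0.30). The groups overlapped at their edges. Tex101, a surface protein of germ cells, differed by 2.53, and Slc25a31, a mitochondrial ADP/ATP carrier of germ cells, by 1.40 without overlap. Mael, Tdrd1, Brdt and Stk31 lay between 1.03 and 1.14. The broad germ cell genes differed less: Dazl, an RNA-binding protein needed to license germ cells, by 0.51 and Ddx4, a helicase, by 0.34. Nanos3, which protects primordial germ cells, went the other way at -0.98.

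Genes of the later oocyte programme were listed as well. Of 14 names, 7 passed the filter, and Figla was the only one past 2-fold (median of the list 0.47). Figla, a transcription factor of the primordial follicle stage, ran from 0.282 through 2.53 to 11.3 in lower and from 11.2 through 28.6 to 71.5 in upper embryos (3.11, SE 0.29). The lowest upper value lay at the edge of the lower range. Nobox, Sohlh1, Gdf9, Zp1 and Nlrp5 had means at or below 1 in all groups. Taf4b, a germ cell subunit of the transcription machinery, differed by 0.47.

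Among genes whose mean reached 5 and whose groups did not overlap, the 10 with the largest difference in the upper direction were Meiob, Spdya, Meioc (Gm1564), Inca1, Terb1 (Ccdc79), Sycp2, Xlr4c, Xlr4a, Prdm9 and Tex16. Every upper embryo exceeded every lower one in each. Inca1, an inhibitor of cyclin-dependent kinases, ran from 1.69 through 6.47 to 19.3 in lower and from 20.9 through 62.8 to 154 in upper embryos (3.17, SE 0.28). Xlr4a, of an X-linked family related in sequence to Sycp3, ran from 67.9 through 141 to 319 and from 356 through 686 to 3171 (2.55). Xlr4c had nearly the same values (2.56), and reads of these close copies cannot be told apart with certainty. Tex16, also X-linked, ran from 0.375 through 1.58 to 3.52 and from 4.76 through 10.4 to 24.6 (2.47). The genes whose order over the 48 embryos was most like that of the score were Spdya (Spearman's rho 0.976), Tex12 (0.973), Prdm9 (0.966), Sycp2 (0.965) and Xlr4b (0.965). Score and gene come from the same libraries, so these correlations are descriptions.

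**Figure D2:**
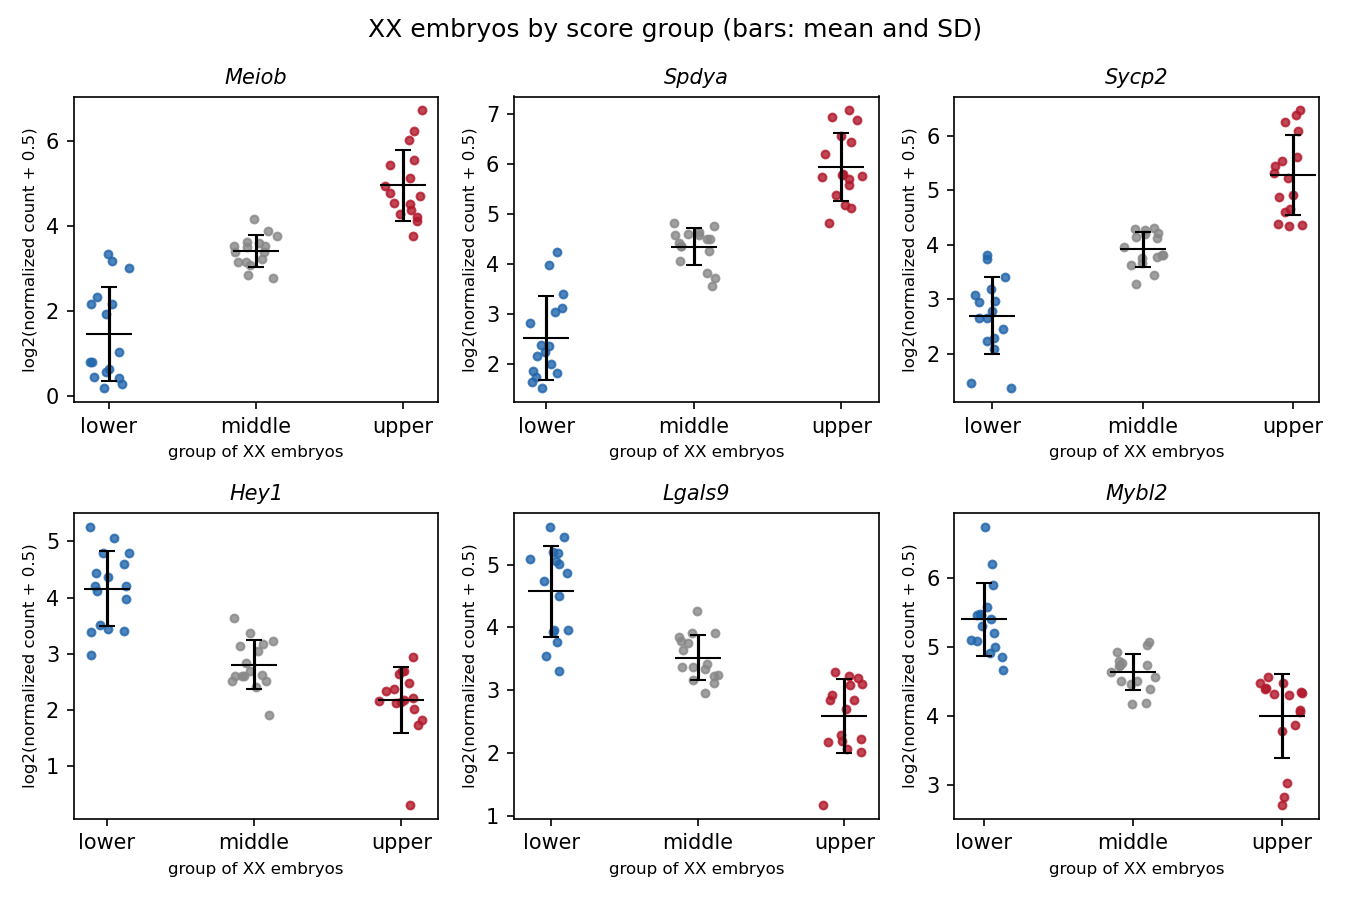
Log2(normalized count + 0.5) of Meiob, Spdya, Sycp2, Hey1, Lgals9 and Mybl2 in the lower, middle and upper XX embryos, 16 in each group. Each point is an embryo and the bars give the mean and SD. Lower and upper points do not overlap in any of these genes, and the middle means lie between.

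Pluripotency genes were on the other side. All 20 listed genes passed the filter, and 10 were at least 2-fold higher in lower embryos and 0 in upper (median -0.96, -0.73 in vehicle). Nanog, a core pluripotency factor, ran from 1.01 through 5.97 to 11.6 in upper and from 4.54 through 19.4 to 49.5 in lower embryos (-1.69, SE 0.26). Pou5f1, whose promoter drives the sorted reporter, ran from 10.9 through 33.6 to 62.6 and from 24.01 through 76.0 to 139 (-1.22, SE 0.25). Utf1, a chromatin factor of pluripotent cells, ran from 44.1 through 115 to 166 and from 126 through 269.8 to 487 (-1.27). The groups overlapped in all 3. Tcl1, an AKT coactivator, did not overlap, running from 77.6 through 153 to 192.5 in upper and from 193.0 through 301 to 396 in lower embryos (-1.05). Zfp42, Tdh, Esrrb, Tfap2c, Prdm14 and Klf2 were the others past 2-fold, between -1.26 and -1.03. Tfap2c and Prdm14 specify germ cells and Esrrb and Klf2 sustain pluripotency. Prdm1, the germ cell specifier beside them, differed by -0.68, Dppa4 by -0.89 and Kit, the receptor that germ cells need to survive and migrate, by -0.36. Dppa3 was level at 0.00 and Sox2 near level at -0.25.

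In the lower direction the 10 genes with the largest difference among those without overlap, again with a mean of 5 or more, were Hey1, Lgals9, Enpp3, Tspan1, Slmo1, Pvrl2, Plcd1, Etv5, Elf3 and Mybl2, and every lower embryo exceeded every upper one in each. Hey1, a repressor induced by Notch signals, ran from 0.740 through 4.07 to 7.14 in upper and from 7.37 through 18.0 to 37.9 in lower embryos (-1.98, SE 0.22). Lgals9, a secreted lectin, ran from 1.77 through 6.36 to 9.26 and from 9.41 through 27.5 to 48.1 (-1.98, SE 0.23). Both were lowest in the upper embryos and had middle medians of 5.81 and 10.03. The ectoenzyme gene Enpp3 differed by -1.75, the tetraspanin gene Tspan1 by -1.74, Slmo1, of a mitochondrial lipid transfer family, by -1.70, and the adhesion gene Pvrl2 (nectin-2) by -1.59. Plcd1, a phospholipase C, differed by -1.51. Among transcription factors, the ETS family genes Etv5 and Elf3 differed by -1.43 and -1.40, and Mybl2, which drives cell cycle genes, by -1.40. In vehicle embryos these 10 differences lay between -1.60 and -1.12. The order over the 48 embryos was most opposed to the score for Tes (-0.940), Enpp3 (-0.936), Lgals9 (-0.932), Tcl1 (-0.932) and Plcd1 (-0.931).

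Cell cycle genes were listed too. None of the 14 S phase genes reached 2-fold, and 12 of them were lower in upper embryos (median -0.44, -0.46 in vehicle). The helicase gene Mcm7 was the farthest, from 28.0 through 51.6 to 80.7 in upper and from 51.1 through 93.0 to 241 in lower embryos (-0.98, SE 0.18). Pcna, the polymerase clamp, and Gins1 went the other way at 0.11 and 0.29. Of 20 listed genes for G2, mitosis, the cyclins and their inhibitors, 1 was 2-fold higher in upper, 2 were 2-fold higher in lower, beside 4.46% and 2.91% of all compared genes, and 15 were lower in upper embryos (median -0.30). Of the D cyclins, which drive the G1 phase, Ccnd1 and Ccnd3 went in opposite directions. Ccnd1 ran from 7.47 through 28.4 to 83.2 in lower and from 43.9 through 72.0 to 105 in upper embryos (1.32, SE 0.22), and Ccnd3 from 23.1 through 61.7 to 137 and from 9.51 through 22.9 to 46.6 (-1.40, SE 0.21). The ranges overlapped in both. Ccnd2 did not reach 2-fold, with medians of 6.64 in upper and 4.10 in lower vehicle embryos and of 4.22 and 3.85 in BaP embryos. The mitotic kinase gene Plk1 differed by -1.10, and Aurka and Aurkb by -0.91 and -0.99, while Cdk1 was near level at -0.09.

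Of 13 genes listed for the XY germ cell fate, 7 passed the filter, and Tdgf1, the NODAL co-receptor, was the only one past 2-fold (median of the list -0.57). It ran from 0 through 0.153 to 0.556 in upper and from 0.205 through 0.882 to 6.91 in lower embryos (-1.39, -0.69 in vehicle), against an XY median of 17.3. So the lower embryos with the most Tdgf1 were still below the XY median. Tdgf1 means in upper embryos, 0.141 in vehicle and 0.229 in BaP, lay below the filter. The size of its difference depends on the 0.5 added to each count. The lower medians of Tdgf1 were 0.350 in vehicle and 3.08 in BaP embryos. Nodal differed by -0.94, with a lower median of 1.16 and an XY median of 11.5. Nanos2, which blocks meiosis in XY germ cells, was at a median of 0 in both groups and reached 0.396 at most in lower embryos. Lefty2, a NODAL target of XY germ cells, had an XY median of 84.0 and a lower median of 0.542.

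Chromatin genes of the polycomb and DNA methylation list were nearly level, with 1 of 18 past 2-fold and a median of -0.09. That gene was Uhrf1, the partner that brings DNMT1 to DNA, from 1.97 through 4.28 to 9.32 in lower and from 7.33 through 9.42 to 14.9 in upper embryos (1.06). Dnmt1 itself differed by -0.16. Tet1 (-0.80) and E2f6 (-0.78), a subunit of the complex that silences meiotic genes, were higher in lower embryos, and Mga (0.42) and Rnf2 (0.30) of the same complex were higher in upper. Of 6 immediate early and heat shock genes above the filter, Ier2 was 2-fold higher in lower embryos (-1.16), and Fos was level (0.07).

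Genes on the X chromosome stood out by position, a feature looked at after the named genes were seen. Of the 576 genes higher in upper embryos with a known chromosome, 78 (13.5%) were on X, against 528 of 12939 (4.08%) of all compared genes and 6 of 380 (1.58%) of those higher in lower embryos. The shift went beyond the 2-fold genes. The median difference was 0.267 over X-linked genes and 0.000 over autosomal genes, with 68.8% of X-linked genes above 0. In vehicle embryos the medians were 0.222 and 0.004, and in BaP embryos 0.298 and -0.003. Those past 2-fold included Tex11, Taf7l and Tex16 and several members of the Xlr family, whose reads may be shared among copies. The X inactivation transcript Xist had a median of 0.572 in lower and 0.483 in upper embryos, with no call at 2-fold, and Tsix, on the opposite strand of the same place, cannot be told from it in these values. Ftx (B230206F22Rik), another transcript of the inactivation centre, was level at 0.00.

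Because XY germ cells do not enter meiosis at this age, the genes were also compared with the difference between the 53 XY and the 16 middle XX embryos, which share no embryo with the upper and lower groups. This comparison was added after the data were seen. Of the 13038 genes, 714 (5.48%) were at least 2-fold higher in XY and 1068 (8.19%) at least 2-fold lower. Among the 582 genes higher in upper embryos, 278 (47.8%) were 2-fold lower in XY and 4 (0.687%) higher, and the 278 made up 26.0% of the 1068. Among the 380 genes higher in lower embryos, 131 (34.5%) were 2-fold higher in XY, which was 18.3% of the 714, and 27 (7.11%) lower. Thus many genes of both sets did not differ 2-fold between XY and middle XX embryos.

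Promoter sequences show where some of the genes carry the motif named for STRA8 and MEIOSIN, CNCCTCAG in either orientation. RefSeq promoters of 300 bases, from 250 before to 50 after a gene's start, were searched for the 4 ranking genes and the 10 named genes higher in upper embryos. A promoter was found for 13 of these 14, Meiob having none in the table, and 4 held the motif: Spdya, Inca1, Xlr4a and Prdm9. Of all 27025 genes with a promoter in the table, 9.12% hold it, and of the 10393 compared genes with a promoter, 11% do. The motif covers few bases and a match shows letters, not binding. Windows of 30 bases around matches in Inca1 and Prdm9 (build GRCm38.p6, minus strand, motif in capitals) are printed because these genes had 2 matches each.
Inca1, chr11:70700279-70700308: aactagcgctcCTGAGGAGtcgggaaaggc
Inca1, chr11:70700153-70700182: aggaggcggtcCCCCTCAGgcccggccttc
Prdm9, chr17:15564377-15564406: tcttgttcccgCCCCTCAGccagctgtctg
Prdm9, chr17:15564322-15564351: cagcctcggaaCTCCTCAGagggacgaacg

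Marker genes of other gonadal cells were read in the same libraries, since the sort enriches and does not purify. The pregranulosa and somatic gonad list had 8 of 12 names above the filter and 0 past 2-fold, with a summed level from 1.82 through 6.66 to 56.5 in lower and from 4.95 through 6.98 to 14.6 in upper embryos. Its most abundant gene, Wnt4, averaged 1.49 over the XX embryos, and Bmp2, Lhx9, Runx1, Wt1, Gata4 and Nr5a1 were at or below 1 in all groups. The Sertoli list had only Aard above the filter, at a mean of 27.7, and the defining markers Sox9, Amh and Dhh were at medians of 0 in both groups. Its summed level ran from 12.02 through 20.9 to 70.2 in lower and from 17.3 through 25.4 to 73.4 in upper embryos. The fetal Leydig list had 3 of 5 names above the filter and 0 past 2-fold, and ran from 2.24 through 4.26 to 6.94 and from 1.30 through 2.96 to 4.29. Its most abundant gene, Insl3, averaged 1.56, and Cyp11a1, Hsd3b1 and Cyp17a1 were at or below 1.

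Markers of blood and vessels were read in the same way. The endothelial list had 3 of 7 names above the filter, and its summed level ran from 35.9 through 52.9 to 93.1 in lower and from 20.7 through 29.3 to 44.8 in upper embryos. Most of it was Pecam1 (mean 32.1), followed by Egfl7, with a median of 8.89 in lower and 7.85 in upper embryos. Tek, also above the filter, had medians of 1.28 in lower and 0.250 in upper BaP embryos and of 0.408 and 0.495 in vehicle. All 3 genes were higher in lower embryos (median of the list -0.72, -0.06 in vehicle). Pecam1, which germ cells also express, was 2-fold higher in lower embryos (-1.03). The defining endothelial marker Kdr was at a median of 0 in both groups. The erythroid list had 5 of 9 names above the filter and 0 past 2-fold, with a summed level from 0 through 2.30 to 1776 in lower and from 0.132 through 3.46 to 456.6 in upper embryos. Its most abundant genes were Hba-a1 and Hba-a2, which have nearly identical values. The macrophage list had 8 of 9 names above the filter and 0 past 2-fold, from 0.368 through 25.5 to 58.0 in lower and from 0.701 through 13.8 to 174.6 in upper embryos, with C1qb (mean 5.99) as its most abundant gene and Csf1r and Adgre1 (Emr1) at or below 1. The stroma and mesonephros list had 6 of 10 above the filter and 0 past 2-fold, from 12.6 through 23.9 to 80.6 and from 13.3 through 17.2 to 53.0, mostly Krt18 (mean 16.4), with Col1a1, Col1a2, Pdgfra and Lum at or below 1.

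Over all these lists the summed level was highest in D2582.1 at 1929 and E0103.2 at 1614, both lower embryos, then in D2256.3 of the lower group at 812.6 and D3136.2 of the middle group at 773.5. Without these 4 embryos, which left 16 upper and 13 lower, 566 genes were 2-fold higher in upper and 418 in lower embryos. The upper embryo C4242.1, next at 763.3, was kept in this count. The part of other cells in single gene differences was not tested further.

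The XY brothers give a measure that the choice did not use. A brother was sequenced for 14 of the 16 upper and 14 of the 16 lower embryos, and where a litter had 2 brothers they were averaged, so that n is the number of litters. The labels do not name the F0 ancestor of F2 and F3 litters. Litters may share an F0 dam, and the fits treated all litters as independent. With limma, the 13130 genes whose mean reached 0.5 in these males were tested between brothers of upper and brothers of lower embryos. At an adjusted p below 0.05, 386 genes (2.94%) were higher and 347 (2.64%) lower in brothers of upper embryos, and 2708 genes had an unadjusted p below 0.05 where 656 would by chance. Within vehicle litters alone (6 against 5) limma and edgeR called 0 genes in either direction, with 1455 and 1443 genes at an unadjusted p below 0.05, and DESeq2 called 20 higher and 14 lower, with 1499. Within BaP litters alone (8 against 9) limma called 0 in either direction, with 2007 at an unadjusted p below 0.05 and a smallest adjusted p of 0.0536. The limma calls over all litters were therefore not reached within vehicle or BaP litters taken alone, with fewer litters. Of genes picked over all litters, Tgtp2 was at 2.71 in vehicle and 2.72 in BaP litters (limma adjusted p 0.274 and 0.0536), Enpep at 1.62 and 2.02 (0.274 and 0.0536) and Lgals9 at -1.25 and -1.56 (0.274 and 0.0906). These litters also took part in picking them.

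Among the ranking genes, Stra8 was changed in the brothers. It ran from 0 through 1.19 to 3.81 in brothers of lower and from 0.274 through 2.54 to 14.1 in brothers of upper embryos, a rise of 1.17 (adjusted p = 0.0391), with 12 of 14 litters of upper embryos above the median of the others. These counts are far below those of any upper XX embryo. Without the deep libraries the difference was 1.05 with an adjusted p of 0.0548. Sycp3 ran from 82.5 through 155 to 307 and from 121 through 214 to 489, a difference of 0.59 that missed the threshold (adjusted p = 0.0628). In 11 of 14 litters of upper embryos it was above the median of the others. It passed with generation and dose as terms (0.016), by edgeR (0.0449) and by DESeq2 (0.0209). Syce1 and Smc1b were higher by 0.13 and 0.13, with adjusted p of 0.43 and 0.636, and 7 and 8 of 14 litters above the median. Nanos2, which directs the XY germ cell fate, ran from 0 through 0.532 to 5.07 in brothers of lower and from 1.09 through 5.10 to 10.95 in brothers of upper embryos. It rose by 2.00 (adjusted p = 0.00289), with all 14 litters above the median of the others. Nanos2 was at 0 in 3 of the 14 litters of lower embryos and Stra8 in 2, so both sizes depend on the 0.5 added to each count. With pseudocounts of 0.1 and 1 the differences were 2.83 and 1.59 for Nanos2, and 1.67 and 0.92 for Stra8. In vehicle litters alone Nanos2 and Stra8 were higher by 2.40 and 2.14 (limma adjusted p 0.274 for both), and in BaP litters alone by 1.77 and 0.48 (limma adjusted p 0.107 and 0.519).

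**Figure D3:**
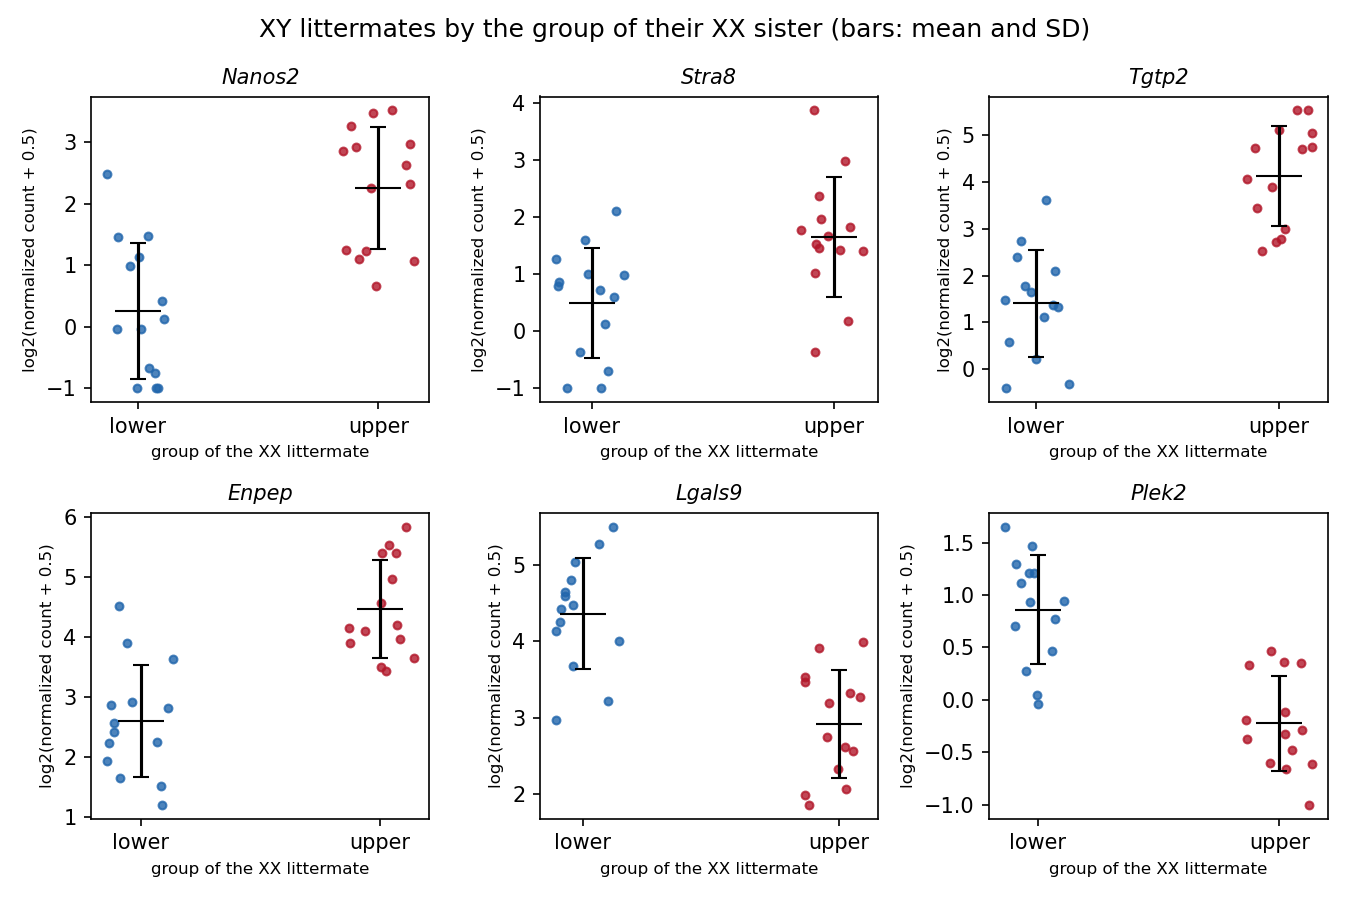
Normalized counts of Nanos2, Stra8, Tgtp2, Enpep, Lgals9 and Plek2 in the XY littermates, on the scale log2(normalized count + 0.5). Each point is a litter, grouped by whether its XX embryo was lower or upper (14 litters each), and the bars give the mean and SD. Nanos2, Stra8, Tgtp2 and Enpep are higher and Lgals9 and Plek2 lower in the littermates of upper embryos.

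The smallest adjusted p among genes that rose belonged to Tgtp2 and Tgtp1, near-identical GTPases induced by interferon. Tgtp2 ran from 0.255 through 2.19 to 11.7 in brothers of lower and from 5.28 through 20.8 to 45.3 in brothers of upper embryos, a rise of 2.73 (adjusted p = 0.000287). Tgtp1 had nearly the same values (2.65, adjusted p = 0.000385), and reads of the pair may be shared. Enpep, an aminopeptidase, rose by 1.86 (adjusted p = 0.00174), Cd7, a surface protein, by 1.53 at counts under 4 (adjusted p = 0.00174), and Dbndd2, a dysbindin-related gene, by 1.46 (adjusted p = 0.00253). In all 5 each of the 14 litters of upper embryos was above the median of the others. Neither Tgtp gene nor Cd7 passed the filter in XX embryos, and Enpep and Dbndd2 were higher in upper XX embryos by 0.66 and 1.12.

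In the other direction Lgals9, which also separated the XX groups, ran from 7.33 through 21.4 to 44.6 in brothers of lower and from 3.14 through 7.43 to 15.3 in brothers of upper embryos, a difference of -1.43 (adjusted p = 0.00253). Echdc2, of the enoyl-CoA hydratase family, was at -0.72 (adjusted p = 0.00253), the calcium-binding gene Gca at -0.95 (adjusted p = 0.00284), Plek2, of the pleckstrin family, at -1.08 (adjusted p = 0.00284) and the phospholipase gene Pla1a at -1.45 (adjusted p = 0.00289). All 14 litters of upper embryos were below the median of the others, 13 in the case of Pla1a. In XX embryos Pla1a differed by -1.02, Echdc2 by -0.97, and Plek2 was near level at -0.15.

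The genes that separated the XX groups can be read as sets in the brothers. Of the 582 genes higher in upper embryos, 502 were tested, 365 (72.7%) were higher in brothers of upper embryos and 76 passed the threshold in either direction, with a median of 0.204. Of the 380 genes higher in lower embryos, 373 were tested, 46 (12.3%) were higher in brothers of upper embryos and 91 passed, with a median of -0.361. Over all 12349 genes tested in both sexes, 45.7% were higher, 654 passed and the median was -0.022. Of 490 X-linked genes tested 40 passed, with a median of -0.026, and of 11765 autosomal genes 611, with a median of -0.022.

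Some of the meiotic genes that differed in XX embryos changed in the brothers, where 654 of the 12349 genes tested in both sexes passed. Of the axis and synaptonemal complex genes, 3 of 11 tested passed the threshold. Sycp1 was higher by 0.89 in brothers of upper embryos (adjusted p = 0.00929), Sycp2 by 0.83 (0.0102) and Tex12 by 0.61 (0.0136). Litters of upper embryos above the median of the others numbered 14, 13 and 14 of 14. Of the recombination genes, 3 of 21 passed: Spo11 was higher by 0.74 (0.00534), Msh4 by 0.75 (0.0186) and Mcmdc2 (6030422M02Rik) by 0.55 (0.0204). Here 14, 14 and 12 litters of upper embryos lay above the median of the others. None of 5 telomere genes passed, and Meiob, Spdya and Prdm9 were at 0.13, 0.03 and 0.15. Of the germ cell RNA and chromatin genes 5 of 15 passed, among them Taf7l at 1.20 (0.0195) and Nanos3 at 0.62 (0.0355), which in XX embryos was higher in lower. Of the 17 entry genes tested, only Crabp2 passed, with a rise of 0.66 (0.0245).

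The counts of the next lists also stand beside 654 of 12349 genes, a share that 1 gene in a list of about 20 would match. Of 20 pluripotency genes 4 passed in the brothers. In brothers of upper embryos Zfp42 was lower by 0.63 (0.0136), Tdh by 0.50 (0.0223), Tfap2c by 0.56 (0.0302) and Kit by 0.60 (0.0254). Litters of upper embryos below the median of the others numbered 14, 12, 13 and 13 of 14. Nanog and Pou5f1 did not pass, at -0.62 (0.207) and -0.26 (0.43). Of the S phase genes 2 of 14 passed, Rrm2 at -0.66 (0.0156) and Cdc6 at -0.63 (0.0201), and of the list for G2, mitosis, the cyclins and their inhibitors 1 of 20, the G1/S cyclin gene Ccne1 at -0.76 (0.0104). The XY fate list had Nanos2 alone of 12, the polycomb and DNA methylation list Tet2 alone of 18, at 0.84 (0.0136), the oocyte list Ooep alone of 9, at 0.46 (0.0332), and the immediate early and heat shock list Hspa1b alone of 9, at 0.83 (0.0459). Among other-cell lists, Rspo1 of the somatic gonad rose by 0.84 (0.029), while only 2 of the 6 genes tested on its list were higher (median -0.21). Pecam1 was at -0.61 (0.0279), and 0 of the 3 endothelial genes tested were higher (median -0.59). None of the 7 Sertoli, 3 Leydig, 3 erythroid, 8 macrophage or 7 stroma genes tested passed. Their median differences were -0.23, -0.24, 0.82, -0.66 and 0.02, with all 3 erythroid genes higher and all 8 macrophage genes lower in brothers of upper embryos. The values in parentheses in these lists are adjusted p from limma over all 13130 genes.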

How the data were processed

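The data are RNA-seq libraries of sorted germ cells from 48 XX and 53 XY embryos. The authors used Trim Galore for trimming, STAR for alignment to GRCm38/mm10, Rsubread for counts per gene and edgeR for TMM. The deposited values are a normalized signal per gene and embryo, and their versions are not given. Python 3.11.15 with pandas 2.3.3 and scipy 1.17.1 ranked the embryos and computed differences of log2(value + 0.5) for genes with a mean of at least 0.5. Reads were recovered by finding the smallest step of each embryo's values. XY littermates were tested across all genes with limma 3.58.1 in R 4.3.3, with a mean-variance trend, Benjamini-Hochberg adjustment and a threshold of 0.05, and again with edgeR 4.0.16 and DESeq2 1.42.0 on recovered reads. The code was tested on simulated data. Labels were compared with Fisher's exact test and depth with 100000 permutations.

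The members and gene lists were chosen with earlier results of these data known. Named genes are the ranking genes, the listed genes, the 10 in each direction with the largest share of the 256 upper and lower pairs in that direction, ties broken by the size of the difference, at least 2-fold and with a mean of at least 5, the 5 in each direction most like the score by Spearman's rho, up to 5 littermate genes in each direction by adjusted p, and Nanos2. Listed names absent from the table under any known synonym, such as Meiosin and Foxl2, were not used, and a few listed genes are not reported here. Shares of promoters with a motif are not compared between sets, since the reference table held promoters for fewer than 80% of the genes. Alternatives changed the pseudocount, filter, scaling, group size, ranking genes, embryos, model terms and test. Depth limits precision for genes with counts near 0.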

Additional observations from a re-analysis of the deposited data

Results flagged for a closer look

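Values far from the rest of their group were looked for among the 6 upper and 6 lower vehicle embryos, by Dixon's test at its 95% level. The measures were the score, the 4 ranking genes, recovered reads and summed other-cell markers, in 14 groups, and 4 values stood apart. Chance sets apart about 1 in 20 groups, but the score and its genes formed the groups, so this rate does not hold for them. BaP embryos were not searched. Among these, the upper embryos C4228.3, with a Sycp3 count of 4088, and C4242.1, with 64111718 reads, exceeded every vehicle embryo. The vehicle upper embryo C4232.9 accounts for 3 of the 4: its score was 10.2942, with the next of the 6 vehicle upper embryos at 9.50862, its recovered reads numbered 54698496, with the next of 5 at 9029521, and its Sycp3 count was 2954, with the next at 1057. The vehicle upper embryo D2991.1 had a summed level of other-cell markers of 352.9, and the next of the 6 had 145.7. The part of these embryos in single gene differences was not tested beyond the counts without each of them.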

How the results depend on the processing

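The 582 and 380 genes 2-fold higher in upper and in lower embryos became 936 and 598 with a pseudocount of 0.1, 340 and 238 with a minimum mean of 5, 915 and 632 with 12 against 12 embryos and 196 and 71 with 24 against 24. With a pseudocount of 1, 253 genes were higher in lower, and among BaP embryos only, 571. A stricter filter compares fewer genes, and a pseudocount acts by construction on low counts. For the other settings the cause was not tested. Under the remaining alternatives both counts stayed within 1.5 times. With vehicle embryos ranked alone the counts were 519 and 398, but only 405 of the 582 and 202 of the 380 genes were among them. The genes named in the text that reached 2-fold, 70 in all, kept their direction in 1120 of 1120 values over 16 alternatives, and 1056 of these were still at least 2-fold. These genes were picked on the same embryos, and a change of filter leaves a gene's difference as it was. Part of this agreement was therefore fixed by construction. In vehicle, 2.66% and 1.37% of the 13038 genes became 1.96% to 3.55% and 0.790% to 2.25% when 1 vehicle embryo at a time was left out.

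The 386 and 347 genes of the XY littermates became 206 and 220 with a minimum mean of 5 and 669 and 753 with the sister's score as a continuous term over 42 litters. With generation and dose as terms, 598 were lower. Vehicle litters alone gave 0 and 0 by limma and by edgeR and 20 and 14 by DESeq2, and BaP litters alone 0 and 0 by limma, each with fewer litters. The fits of BaP litters and of vehicle litters by edgeR and DESeq2 were chosen after seeing the data. For the rest the cause was not tested. Sycp3 passed the threshold with generation and dose as terms (0.65, adjusted p 0.016), by edgeR (0.66, 0.0449) and by DESeq2 (0.67, 0.0209). Fisher's tests had no alternative, and depth by the sum of normalized counts gave p = 0.221.

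No paired analysis was possible because each dam contributed at most 1 XX library, so that upper and lower embryos never share a litter. The median depth was 7789673 reads, so differences among genes with counts near 0 rest on few reads.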
